A study of Homo sapiens with 5 samples.

Results

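Of the 67780 H2A-K130ac peaks called on chromosomes 1 to 22 and X of abiraterone-treated C4-2B cells, 34525 (50.9%, exact 95% binomial interval 50.6 to 51.3%) had no peak of Romidepsin-treated C4-2B cells within 10 kb. These 34525 regions, called far peaks here, were chosen by position alone: the gap between the edges of an abiraterone peak and the closest Romidepsin peak had to exceed 10000 bp. The other 33255 abiraterone peaks are called near peaks. Both lists together held 159206 peaks, and 27 abiraterone peaks on other chromosomes were left out.

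C4-2B is a human prostate cancer cell line, although the sample labels name breast cancer. One library was made from cells treated with abiraterone, which inhibits the androgen-synthesizing enzyme CYP17A1, and 1 from cells treated with Romidepsin, an inhibitor of histone deacetylases. The labels of both C4-2B samples repeat the 0.5 µM Romidepsin of the VCaP cells, and no dose or time is stated for the C4-2B ChIP-seq in the sources used here, beside those of the study's separate ChIP-qPCR. No vehicle-treated C4-2B library was analysed here. With 1 library per treatment no difference between treatments was tested. All intervals are exact and cover counting error only, and they treat neighbouring peaks as independent, which they are not. No read counts accompany the peaks, so the depth behind each one is unknown.

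Acetylation of lysine 130 lies on the carboxy-terminal tail of histone H2A, which protrudes near the point where DNA enters and leaves the nucleosome. Acetyl groups on histones are placed by acetyltransferases such as KAT2A (GCN5) and removed by deacetylases, the enzymes that Romidepsin blocks. Androgen deprivation, the other treatment, lowers the steroid ligand of the androgen receptor while the sterol regulatory factor SREBF1 drives genes of cholesterol and fatty acid synthesis.

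A far peak that covers a gene's start site ties the mark to a promoter that can be read base by base. In all, 131 far peaks covered an annotated start site. The promoters of 3 of these genes are shown, those with the strongest far peak among protein-coding genes whose start could be matched to RefSeq, and they range from CpG-poor to CpG-rich. Each is taken from RefSeq (GRCh38.p14) and runs from 250 bases before to 50 bases after the start, with CpG dinucleotides in capitals.
RTP1, chr3:187197236-187197535, plus strand: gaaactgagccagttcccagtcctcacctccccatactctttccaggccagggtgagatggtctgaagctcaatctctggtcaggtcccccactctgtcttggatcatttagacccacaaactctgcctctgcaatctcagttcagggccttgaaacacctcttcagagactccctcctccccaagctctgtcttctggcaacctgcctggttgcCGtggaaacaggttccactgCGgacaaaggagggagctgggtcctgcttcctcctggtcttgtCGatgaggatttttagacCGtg
COQ5, chr12:120529109-120529408, minus strand: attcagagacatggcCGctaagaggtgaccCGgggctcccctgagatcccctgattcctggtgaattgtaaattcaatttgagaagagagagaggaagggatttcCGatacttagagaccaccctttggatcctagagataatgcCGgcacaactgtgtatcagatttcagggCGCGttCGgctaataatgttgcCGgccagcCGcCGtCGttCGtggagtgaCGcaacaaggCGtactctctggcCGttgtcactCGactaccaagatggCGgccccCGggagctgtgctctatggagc
LRFN5, chr14:41606626-41606925, plus strand: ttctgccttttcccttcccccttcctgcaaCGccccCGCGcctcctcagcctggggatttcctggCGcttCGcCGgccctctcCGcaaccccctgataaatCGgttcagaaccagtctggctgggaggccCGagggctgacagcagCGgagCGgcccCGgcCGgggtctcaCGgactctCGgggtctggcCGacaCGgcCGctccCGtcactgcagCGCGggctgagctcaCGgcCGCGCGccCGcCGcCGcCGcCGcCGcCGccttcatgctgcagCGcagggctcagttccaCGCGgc

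RTP1 encodes a chaperone that carries odorant receptors to the cell surface, and its window held 4 CpG dinucleotides and 54.7% G and C. COQ5, a methyltransferase of coenzyme Q synthesis, held 18 CpG, and LRFN5, a synaptic adhesion protein, held 35. The far peak over the RTP1 start site (hg19, chr3:186915152-186915467) was enriched 5.37-fold over the control, with 3.8 as its −log10 q. Those over COQ5 (hg19, chr12:120966777-120967740) and LRFN5 (hg19, chr14:42076545-42076793) were each enriched 4.48-fold, at a −log10 q of 2.87. The fold is the enrichment of the peak over its control, and a −log10 q of 2 corresponds to a q-value of 0.01.

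Far peaks with a start site within 1 kb belonged to 827 genes, of which 640 had a RefSeq promoter. Their windows had a median of 62.0% G and C and 23 CpG, against 62.3% and 22 in the 803 promoters of near peaks and 58.3% and 14 in all 27305 promoters. Promoters at far peaks thus differed little in base composition from those at near peaks. The E-box CACGTG, searched on both strands (it reads the same on each), was found in 7.81% of the far promoters (5.85 to 10.2%), 11.1% of the near ones (8.996 to 13.5%) and 7.43% of all promoters. CACCCCAC, the core of the sterol regulatory element, was found on either strand in 3.12% of the far promoters (1.92 to 4.79%), 1.99% of the near ones (1.14 to 3.22%) and 2.72% of all. The intervals of far and near promoters overlapped for both motifs.

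How far the far peaks lay from Romidepsin peaks was examined first. The median distance was 23262 bp, 1 in 4 lay more than 38583 bp away, and 1 in 10 more than 61643 bp. Only 1039 of them were over 100 kb from any Romidepsin peak. The most distant peak, at chr2:92176219-92176496 (hg19), was 1927719 bp away, had a 3.798-fold enrichment and lay between genes near the pseudogene ACTR3BP2. Just inside the limit, at 10001 to 11000 bp, there were 1906 peaks with a median fold of 2.83, 7.24% of them at promoters. Just outside it, at 9001 to 10000 bp, there were 2060 peaks with the same median fold, 7.18% of them at promoters. The limit thus runs through a continuous range of distances and marks no step in the data.

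The share of far peaks depended on which Romidepsin peaks were counted. The Romidepsin list is permissive, with a median −log10 q of 0.717 both among its peaks without an abiraterone peak within 10 kb and among those with one. When the Romidepsin list was reduced to the 11546 peaks whose −log10 q reached 1.3, 90.0% of the abiraterone peaks were far. When the abiraterone list was reduced to peaks whose −log10 q reached 2, 50.3% were far. In the opposite direction, 61.5% of the 91363 Romidepsin peaks had no abiraterone peak within 10 kb.

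A share of far peaks has to be read against the share of sequence that is far. Of 2805 Mb spanned by peaks, leaving out 27 gaps of over 1 Mb without any peak, 56.2% lay more than 10 kb from every Romidepsin peak. The far share of the abiraterone peaks was 5.31 percentage points below this, so abiraterone peaks lay within 10 kb of a Romidepsin peak more often than the sequence around them. The far share was below the share of far sequence on all 23 chromosomes, and on 22 when the area was counted for a peak of median width, the exception being chromosome 19.

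**Figure D1:**
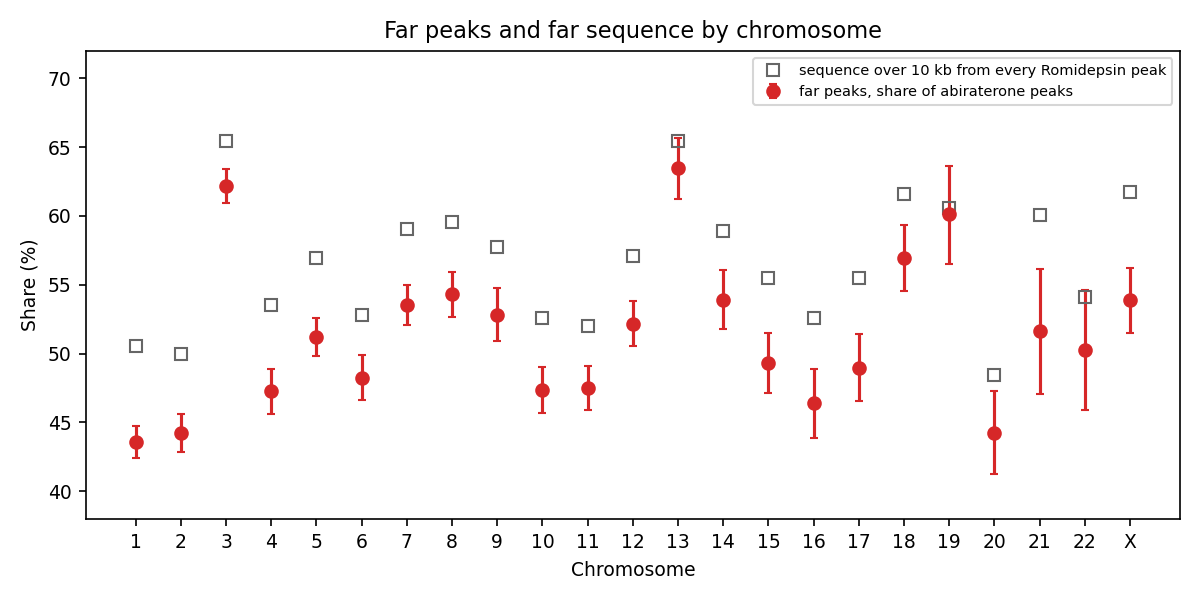
Share of abiraterone peaks that were far, in percent of each chromosome's abiraterone peaks (red points, bars are exact 95% binomial intervals), and share of sequence over 10 kb from every Romidepsin peak (open squares), by chromosome. Chromosomes 13 (63.5%) and 3 (62.2%) have the highest far shares, chromosome 1 (43.6%) the lowest, and the red points follow the squares.

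Chromosomes 13 and 3 stood highest. On chromosome 13, 1187 of 1870 peaks were far (63.5%, 61.3 to 65.7%), and on chromosome 3, 3719 of 5982 (62.2%, 60.9 to 63.4%). These chromosomes also had the fewest Romidepsin peaks per Mb, 23.5 and 24.1, against 32.6 over all chromosomes. Chromosome 1, with 40.2 Romidepsin peaks per Mb, had the lowest far share (43.6%, 42.4 to 44.8%). The rule uses Romidepsin peaks, so the order is given as a description. It did not follow their density throughout: chromosomes X and 19 had 26.3 and 26.8 Romidepsin peaks per Mb, and far shares of 53.9% and 60.1%. Counted per Mb, far peaks were most frequent on chromosome 3 (19.1 per Mb) and least on chromosome X (6.29 per Mb), which was also poorest in abiraterone peaks altogether (11.7 per Mb).

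Within these chromosomes the far peaks were unevenly placed. In windows of 20 Mb (hg19), the far share on chromosome 13 was 77.9% at 20 to 40 Mb (501 of 643 peaks), where 299 Romidepsin peaks lay, and 45.8% in the next window (154 of 336), where 583 lay. On chromosome 3 it ranged from 51.1% at 40 to 60 Mb to 73.3% at 160 to 180 Mb. That last window held 753 abiraterone peaks and 307 Romidepsin peaks. Abiraterone peaks also outnumbered Romidepsin peaks in the window after it (818 against 468), where the far share was 57.0%. An excess of abiraterone peaks thus did not single out the window with the highest share.

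Next, the genomic annotation of the far peaks was compared with that of the near peaks. Far peaks were less often at promoters, defined as within 3 kb of a start site: 6.62% (6.36 to 6.89%) against 8.59% (8.29 to 8.90%). They were more often intergenic, 49.6% (49.0 to 50.1%) against 47.2% (46.7 to 47.8%). Introns held 39.8% of the far and 39.4% of the near peaks, with overlapping intervals, and exons held 2.47% and 2.94%. The 3′ untranslated regions held 1.20% of the far peaks and 1.498% of the near peaks. Within 1 kb of a start site there were 972 far peaks (2.82%) and 1178 near peaks (3.54%). The median distance to the closest start site was 57759 bp for far peaks and 42286 bp for near peaks, and 7.73% of the far peaks against 4.65% of the near peaks lay over 500 kb from one.

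The promoter share fell in steps with distance. It was 9.92% (8.82 to 11.1%) among abiraterone peaks that overlapped or touched a Romidepsin peak and 7.88% among those 5 to 10 kb away. Among far peaks it was 7.56% (7.13 to 8.004%) at 10 to 20 kb, 6.45% (6.06 to 6.85%) at 20 to 50 kb, 5.03% (4.40 to 5.72%) at 50 to 100 kb and 2.79% (1.88 to 3.98%) over 100 kb. The intergenic share was 46.1% at overlapping peaks, 47.8% at 10 to 20 kb and 61.3% (58.3 to 64.3%) over 100 kb. Among far peaks, strength varied little with distance. The median fold was 2.83 at 10 to 20 kb and 2.81 over 100 kb, and the share with a −log10 q of at least 2 was 24.2% and 23.6%. Peaks that overlapped or touched a Romidepsin peak reached this q more often, in 29.9% of cases. Their median width was 375 bp, against 338 bp at 10 to 20 kb.

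**Figure D2:**
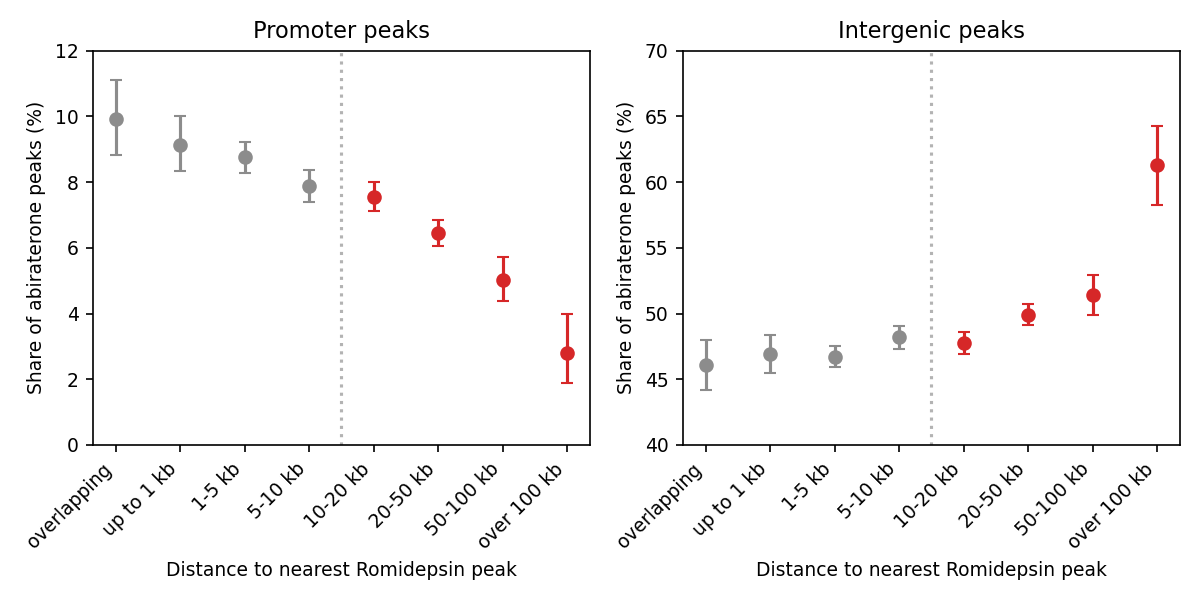
Share of abiraterone peaks annotated as promoter (left) and as intergenic (right), in percent, against the distance to the closest Romidepsin peak; grey points are near peaks, red points far peaks, bars are exact 95% binomial intervals, and the right axis starts at 40%. The promoter share falls from 9.92% to 2.79% and the intergenic share rises from 46.1% to 61.3%.

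Chromosomes were then taken one by one, since they differ in gene content. The promoter share of far peaks was below that of near peaks on 20 of the 23 chromosomes, the exceptions being 10, 13 and 22. The intergenic share was higher on 19 of 23, the exceptions being 6, 8, 10 and 15. The Romidepsin peaks gave a smaller contrast: 8.71% (8.48 to 8.95%) of those without an abiraterone peak within 10 kb were at promoters, and 9.08% (8.78 to 9.39%) of those with one. The part of gene density in this contrast was not tested.

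The length of the surrounding gene ran alongside. Of abiraterone peaks in genes under 50 kb, 42.3% (41.0 to 43.7%) were far. This share was 50.0% in genes of 50 to 200 kb, 53.3% in genes of 500 kb to 1 Mb and 58.1% (55.8 to 60.3%) in genes over 1 Mb. Over the same range Romidepsin peaks fell from 47.8 to 26.7 per Mb of gene and abiraterone peaks from 28.5 to 23.2 per Mb. Peaks in no gene with known limits were far in 52.0% of cases.

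In strength, far and near peaks were alike in their medians. The median fold was 2.83 in both, the median width 338 bp and 341 bp, and a −log10 q of at least 2 was reached by 24.6% (24.2 to 25.1%) of the far and 25.2% (24.8 to 25.7%) of the near peaks. Folds took few distinct values: the 3 commonest made up 33.3% of the far peaks. A fold of 10 or more was given to 15 far peaks and 8 near peaks. The highest fold was 16.14 among far peaks and 17.95 among near peaks, and the upper quartiles were 3.49 and 3.58.

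The strongest far peaks were narrower than the rest. The highest fold, 16.1 with a −log10 q of 29.7, was shared by an intergenic peak 70867 bp from the start of TSEN15, a subunit of the tRNA splicing endonuclease, and an intronic peak of FAM168B. Next came a peak 925 bp upstream of LIMS1, an adaptor at focal adhesions, and an intergenic peak on chromosome X closest to NLGN4X, a synaptic adhesion protein, each enriched 16.1-fold at a −log10 q of 29.0. The others of the 10 strongest were annotated to THAP3 (fold 14.2), ZBTB14 (14.1), ZNF385D (14.0), APOBEC1 (13.4), GPR52 (12.3) and RANBP3-DT (12.3). Of the 50 strongest, 25 were intergenic, 16 intronic and 5 at promoters, where all far peaks were 49.6% intergenic, 39.8% intronic and 6.62% at promoters. Their median width was 239 bp, against 338 bp for all far peaks. The widths of the strongest near peaks were not examined, so narrowness is not shown to be particular to far peaks.

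Among far peaks within 1 kb of a start site, the peak of LIMS1 stood apart. Among those that followed were DCST1-AS1 (fold 8.06), SMAGP (6.65), the odorant receptor OR2Z1 (6.64), LRRC7 (6.61), the complement factor H-related CFHR4 (6.60), CRYGS and TEX43 (both 6.27) and MS4A13 (5.37). The LRRC7 peak covered the start site and lay 38506 bp from the closest Romidepsin peak.

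Clustering of the far peaks was described by the gap between neighbours. Another far peak lay within 10 kb of 17039 far peaks (49.4%, 48.8 to 49.9%), while 53.7% of near peaks had another near peak within 10 kb. The gaps fell into separate groups. No gap was shorter than 151 bp, 4514 were between 151 and 300 bp, and 334 fell from 500 bp to below 1 kb. Of 4717 pairs with a gap of at most 500 bp, 89.9% held a peak of at most 130 bp in width, close to the smallest width in the list (125 bp). Counted as single peaks, 79.9% of the far peaks with another within 500 bp were this narrow, and 0.866% of the others. The median pair spanned 451 bp. When far peaks up to 500 bp apart were joined to sites, a choice made after seeing the data, 29808 sites remained and 30.6% (30.1 to 31.2%) of them had another within 10 kb, against 34.4% of near sites. Whether such pairs are separate sites or 1 site that was split was not tested.

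**Figure D3:**
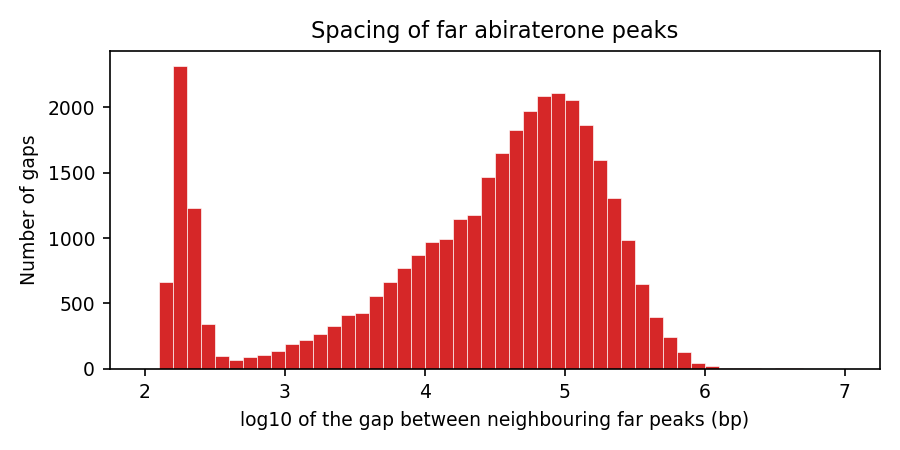
Number of gaps between neighbouring far peaks on the same chromosome, by the log10 of the gap in bp. A narrow group holds the 4514 gaps of 151 to 300 bp, separate from the broad group of gaps that lie mostly above 1 kb.

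Far peaks linked by gaps of at most 10 kb formed 24758 runs, of which 17486 held a single peak and 150 held 5 or more. These 150 runs took in 2.36% of the far peaks, and 37 runs held 5 or more sites after joining. The longest run held 10 peaks, or 8 sites, in 33.8 kb at HYDIN (hg19, chr16:71019457-71053297), which encodes a protein of motile cilia and has a near-identical copy elsewhere in the genome, so its reads are uncertain in origin. Its folds ranged from 1.79 to 3.65. A run of 9 peaks in 33.5 kb lay closest to the ribosomal pseudogene RPS7P5, with folds of 2.69 to 4.598. Runs of 8 peaks lay in 24.97 kb at ZFHX3, a homeobox gene altered in prostate cancer, in 28.8 kb at LINC00544, and in 34.0 kb at RASL11A and SNORA27. The median fold was 2.68 in the HYDIN run and 3.65 in the RPS7P5 run, where that of all far peaks was 2.83 and their upper quartile 3.49.

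On a larger scale, the far peaks were grouped by the stretch between consecutive Romidepsin peaks in which they lay. There were 16257 such stretches with a median length of 66.2 kb, and 7806 of them held 1 far peak. In 100 stretches there were 10 or more, 1267 far peaks in all. Chromosome 3 held 31 of these 100 and chromosome 13 held 14, followed by chromosome 7 with 12 and chromosome 5 with 8.

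**Figure D4:**
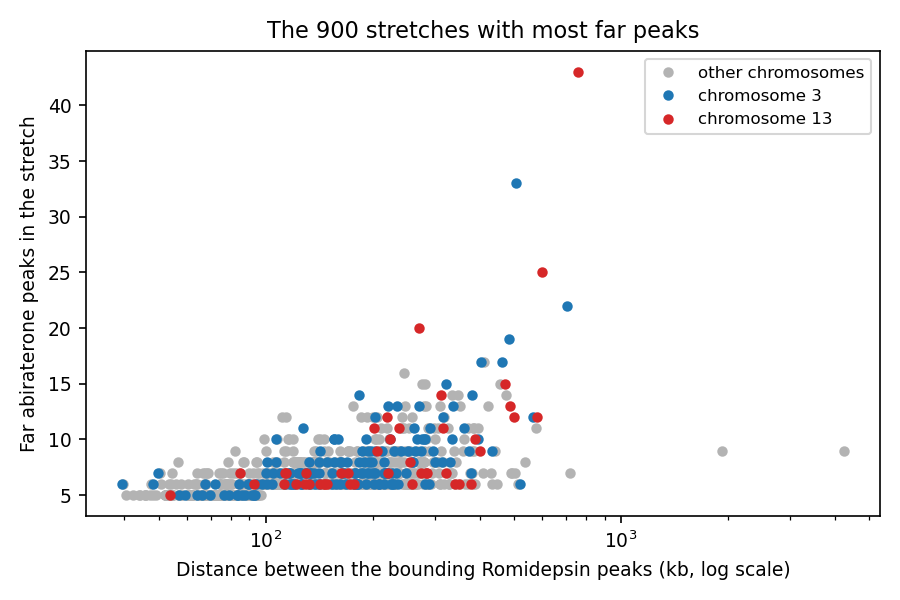
Number of far peaks in each of the 900 stretches that hold the most, against the distance between the bounding Romidepsin peaks in kb (log scale), with chromosomes 3 (blue) and 13 (red) marked. The stretch with 43 far peaks on chromosome 13 and the one with 33 on chromosome 3 stand above all others.

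The stretch with the most far peaks was 755 kb of chromosome 13 without a Romidepsin peak. It held 44 abiraterone peaks, 43 of them far, or 38 sites after joining. Abiraterone peaks were present there at 58.3 per Mb and over chromosome 13 at 19.6 per Mb, a difference that the choice of the richest stretch favours. FRY, a large protein of cell polarity and mitosis, held 16 of the far peaks, and the pseudogene EEF1DP3 and N4BP2L2 held 5 each. Folds ran from 2.32 to 5.26, and the strongest peak lay in an intron of FRY (hg19, chr13:32775298-32775621), 352423 bp from the closest Romidepsin peak.

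Other stretches of this kind were found on chromosomes 3 and 13. A 507 kb stretch at FNDC3B and the ghrelin receptor gene GHSR (hg19, chr3:171676586-172183230) held 33 far peaks, 26 of them intronic. A stretch of 601 kb (hg19, chr13:22775148-23375891) held 25, of which 22 were intergenic and 3 intronic, and one of 704 kb (hg19, chr3:165777982-166482384) held 22, all intergenic. A 271 kb stretch at GTF3A, MTIF3 and RASL11A (hg19, chr13:27820143-28090673) held 20, with 7 at promoters. As these stretches were picked for holding the most far peaks, their density of abiraterone peaks was not compared with that of other sequence. The copy number of these regions was not examined.

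Finally, far peaks were counted in genes, by their midpoints within the outermost limits of the transcripts that some peak was assigned to. Of 18360 genes with limits, 5506 held a far peak (30.0%), 833 held 5 or more (4.54%) and 202 held 10 or more. Among the 833, which were selected for their far peaks, the median was 0.0231 far peaks per kb, and 52 of them held no Romidepsin peak.

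Per kb of gene, PRKAR1A ranked first. It encodes a regulatory subunit of protein kinase A and held 8 far peaks in 39.5 kb, or 0.202 per kb (exact Poisson interval 0.0874 to 0.399), and no Romidepsin peak. Its peaks had folds of 2.74, 2.55, 2.69, 2.69, 3.68, 4.26, 2.82 and 4.68 in order of position, and 3 reached a −log10 q of 2. The strongest (hg19, chr17:66535709-66536273) lay in the part that overlaps FAM20A, together with 1 other. The pairs at the start of this series were 125 to 128 bp wide and closely spaced. Joining these, and the strongest peak with the peak of 126 bp just before it, left 5 sites.

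The first 15 genes had a median length of 41.1 kb, against 337 kb for all 833 genes, and those after PRKAR1A carried 5 or 6 far peaks each. MKRN1, a ubiquitin ligase, had 0.188 per kb (0.0612 to 0.440), PLCD4, a phospholipase C, 0.170, STYXL2, a pseudophosphatase, 0.146, and TGFBI, a protein of the extracellular matrix, 0.143. ANXA7, an annexin, followed with 0.129, LYPLAL1 with 0.128, and FLVCR1, a membrane transporter, with 0.122. The others of the first 15 were PLEKHA8P1, TMEM217, the aquaporin AQP9, OSTF1, the mitochondrial ribosome recycling factor MRRF, TTC23L and LIX1, the last with 0.0981 per kb. Their intervals overlapped from the first to the last, so the order among them is not resolved. PLEKHA8P1 overlaps ANO6, and AQP9 overlaps ALDH1A2.

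Of these 15 genes, 11 held no Romidepsin peak and 10 had only far peaks among their abiraterone peaks. Both counts follow largely from the choice of short genes dense in peaks over 10 kb from any Romidepsin peak. They were not compared with other genes of this length. Together they held 81 far peaks, 59 in introns, 10 at promoters, 6 in 3′ untranslated regions and 5 in exons, and 21 had a −log10 q of at least 2. Joining pairs left 5 or more sites in 3 of the 15 only: PRKAR1A, ANXA7 and MRRF. In ANXA7 the 5 peaks had folds of 2.69, 2.80, 3.70, 1.79 and 3.404 and lay 73217 to 100713 bp from the closest Romidepsin peak, farther than those of any other gene among the 15. In LIX1, by contrast, 4 of 5 peaks reached a −log10 q of 2 and the highest fold was 5.69.

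**Figure D5:**
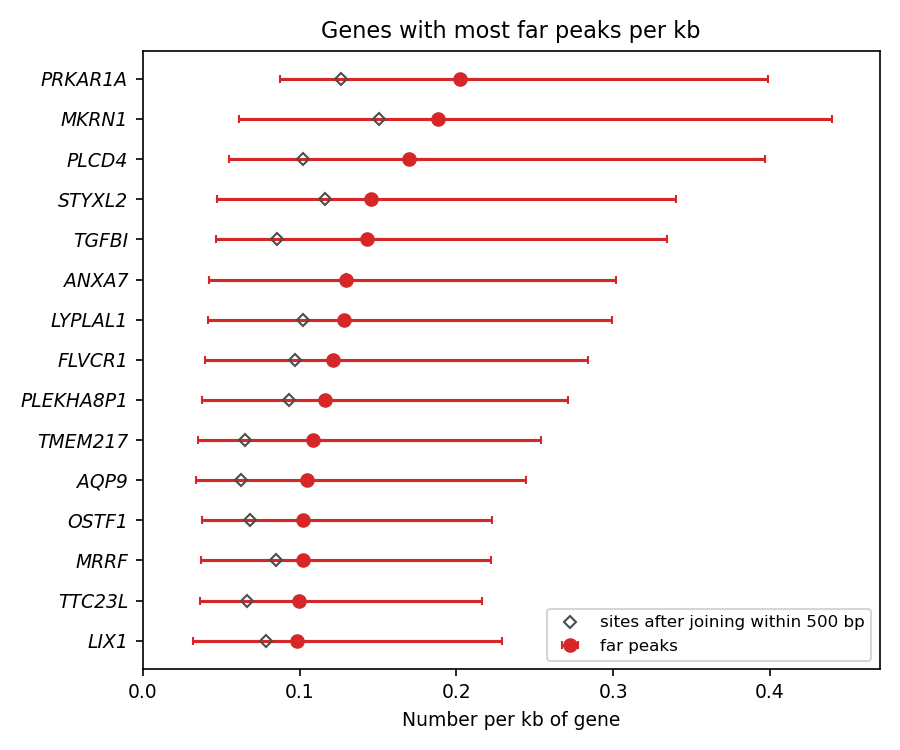
Far peaks per kb of gene in the 15 genes with the most among those with at least 5 (red points, bars are exact 95% Poisson intervals), and the number of sites per kb after joining peaks up to 500 bp apart (open diamonds). All intervals overlap, and the diamonds lie below the points except in ANXA7, where they coincide.

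Counted without regard to length, the leading genes were very long. CNTNAP2, a neurexin-family adhesion protein of 2305 kb, held 45 far peaks of 75 abiraterone peaks (60.0%, 48.0 to 71.2%) beside 53 Romidepsin peaks. DLG2, a synaptic scaffold, held 41 of 78 (52.6%). NAALADL2 held 37 of 49 (75.5%, 61.1 to 86.7%) in 946 kb, with 9 Romidepsin peaks, and CTNNA3, an alpha-catenin, 37 of 54. The others were the receptor phosphatase PTPRD (36 of 46), the contactin CNTN5 (35 of 46), the cyclic AMP phosphodiesterase PDE4D (35 of 48), the cyclic GMP-dependent kinase PRKG1 (34 of 44), the axon guidance receptor ROBO2 (34 of 41) and IMMP2L (32 of 41). ROBO2 had the highest far share of the 10 (82.9%, 67.9 to 92.9%). Per kb they were less dense than the short genes above, from 0.0157 in PTPRD to 0.0391 in NAALADL2.

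Lists of genes were then read against the 50.9% far share of all abiraterone peaks. Of 52 long neuronal and fragile-site genes, 51 held a far peak, against 30.0% of all genes, most of which are much shorter. Of their 1655 peaks, 1007 were far (60.8%, 58.4 to 63.2%). All genes over 1 Mb had a far share of 58.1% (55.8 to 60.3%), an overlapping interval. Many of those genes are on this list, so the comparison cannot show whether the share was particular to it. The listed genes had 25.05 Romidepsin peaks per Mb and 24.5 abiraterone peaks per Mb, against 32.6 and 24.2 over all sequence. Genes altered in prostate cancer had a far share of 65.3% (55.2 to 74.5%), 66 of 101 peaks, in 21 of 36 genes with limits. Here ZFHX3 held 11 far peaks of 16, the kinase subunit gene PIK3R1 5 of 6 and the chromatin remodeler CHD1 4 of 5.

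Acetyltransferases, deacetylases and bromodomain readers had 66 far peaks of 116 (56.9%, 47.4 to 66.1%), an interval that includes 50.9%. HDAC9 held 19 of 32, HDAC4 7 of 9, PHIP 5 of 5 and KAT2B, the paralog of KAT2A, 4 of 4. Neither peak annotated to KAT2A was far. They lay 4661 and 4939 bp from a Romidepsin peak, with folds of 2.85 and 2.69.

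The androgen receptor program had 51 far peaks of 88 (58.0%, 46.9 to 68.4%). GRHL2, a transcription factor of epithelial cells, held 8 of 9, the repressor ZBTB16 6 of 9, the androgen-induced chaperone FKBP5 5 of 5 and the coactivator NCOA1 5 of 6. At the other end, none of the 6 peaks of TMEFF2 and none of the 4 of the ion channel TRPM8 was far; both were picked after their values were seen. FKBP5 had 1 Romidepsin peak in 155 kb. Of the androgen synthesis genes, 7 of 22 with limits held a far peak, near the 30.0% of all genes, and 12 of 25 peaks in all were far (48.0%, 27.8 to 68.7%). AKR1C3, which makes testosterone, held 3 of 3, and the aromatase CYP19A1 3 of 4. The limits used for AKR1C3 contain AKR1C2, which held no abiraterone peak, and overlap those of AKR1C1. Some peaks may thus count for both AKR1C3 and AKR1C1.

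Sterol and fatty acid genes had 25 far peaks of 50 (50.0%, 35.5 to 64.5%). ACACA and ACACB, the acetyl-CoA carboxylases, held 10 of 13 and 5 of 7, and the fatty acid elongase ELOVL6 held 3 of 5. The desaturase SCD5 held 1 of 6 and the malic enzyme ME1 1 of 3, and both were picked after their values were seen. ACACA had 4 Romidepsin peaks in 325 kb. SREBF1 itself held no far peak, and only 1 abiraterone peak lay within its limits (hg19, chr17:17714663-17740325). The 4 peaks annotated to SREBF1 as the closest gene lay 1935 to 8532 bp from a Romidepsin peak. Those classed as promoter had folds of 2.848 and 2.823. Those classed as intronic, with folds of 2.835 and 6.269, lay outside its limits, at -45865 and -63859 bp from its start site. Among receptor kinases 33 of 59 peaks were far (55.9%, 42.4 to 68.8%), with 16 of 30 in ERBB4, also one of the long neuronal genes, and 14 of 19 in IGF1R. For each list but the long neuronal genes and the prostate cancer genes, the interval included the 50.9% of all peaks.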

How the data were processed

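H2A-K130ac ChIP-seq peaks of 1 abiraterone and 1 Romidepsin library of C4-2B cells were used; the 3 VCaP samples were not analysed here. The study's methods name Bowtie and MACS, and the submitters' processing notes name MACS2 and hg38. Coordinates were taken as hg19, because the last abiraterone peak on chromosome 1 ends at 249119849, past the end of that chromosome in GRCh38, and transcripts carry UCSC names of hg19. The deposited lists hold narrow peaks and name an input as control, while the study's Reporting Summary gives broad peaks and the vehicle-treated sample as control; which control lies behind the folds, and whether duplicates were pooled, is not settled. The fold (a linear ratio over the control), the −log10 p- and q-values and the score of each peak are the authors' deposited values, not comparable between libraries. Classes and closest genes are from the deposited annotation, whose conservative and optimal tables were identical.

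Distances, gaps, far sequence, runs and counts in genes were computed from peak edges with Python 3.11.15, numpy 2.4.6, pandas 2.3.3 and scipy 1.17.1, and the code was tested on simulated intervals. A gene ran between the outermost ends of those of its transcripts that a peak of either list was assigned to, known only for genes closest to some peak. These limits can be shorter than the whole gene, and lengths, counts and densities per kb depend on them. Motif searches used RefSeq promoters of GRCh38.p14, and 18294 of 18384 gene identifiers matched its gene table; no genome of the peaks' build was used, so no peak sequence is shown. Promoters were printed for start sites covered by a far peak, by fold, where the gene had the same length within 1% and the same first base in both annotations.

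Named genes were the 15 with most far peaks per kb among those with at least 5, the 10 with most far peaks, those at the 10 strongest far peaks and at the 10 strongest within 1 kb of a start site, those in the 5 longest runs and 5 richest stretches, up to 4 per gene list, SREBF1 and KAT2A. Some genes this rule would name are not reported here. The members, lists and rules were chosen with earlier results of these data known. Gene families by symbol are given in the closing section. Alternatives were other distances, stricter q-values in either list, summits in place of edges, other promoter, neighbour and gene limits, all chromosomes and no gaps left out.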

Additional observations from a re-analysis of the deposited data

How the results depend on the processing

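No paired analysis was possible because there is 1 library per treatment. Of 60 values recomputed under an alternative, 17 stayed within the counting interval of the reported value, or within 1.5 times for counts, and 43 moved; none changed sign. With a distance of 5, 20, 50 or 100 kb, the far share was 68.6%, 29.9%, 7.90% or 1.53%, its promoter share 6.94%, 5.96%, 4.59% or 2.79%, and its difference from the share of far sequence stayed below 0 (-4.71, -2.92 and -1.38 percentage points at 20, 50 and 100 kb). At 20, 50 and 100 kb the intergenic share was 50.8%, 53.3% and 61.3%, the median fold 2.83, 2.81 and 2.81, and the genes with 5 or more far peaks 432, 89 and 8; the intron share was 38.7% and 33.9% at 50 and 100 kb. With abiraterone peaks of a −log10 q of at least 2, the far share was 50.3%, intergenic 50.5%, intron 38.9%, another within 10 kb 20.4%, genes 89, median fold 3.78 and the difference from far sequence -5.93 points. With Romidepsin peaks of a −log10 q of at least 1.3, these were 90.0% far, 7.45% promoter, 48.7% intergenic, 54.0% with another within 10 kb, 1700 genes and -2.12 points. Summit distances gave 52.0% far. Promoters within 1 kb held 2.82%. Another far peak lay within 5 kb of 39.7% and within 50 kb of 79.3%. At least 10 far peaks were held by 202 genes. With no gaps left out the difference was -7.28 points. Of the alternatives chosen after seeing the data, joining peaks up to 500 bp apart gave 30.6% with another within 10 kb and 655 genes, and the area for a peak of median width gave -4.82 points. The cause was not tested. The unknown depth and the permissive q-values of the Romidepsin list limit what a missing Romidepsin peak shows: it is a call not made, not an absent mark.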

Other observations

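Far peaks were also counted by the family of the closest gene. Protocadherins, cell adhesion proteins of the nervous system, were closest to 181 far peaks of 249 abiraterone peaks (72.7%, 66.7 to 78.1%), with 41 of 54 at PCDH7 and 34 of 45 at PCDH15. Olfactory receptors were closest to 237 of 374 (63.4%, 58.3 to 68.3%), of which the pseudogene OR7E156P took 32 of 42. Zinc finger genes with ZNF symbols on chromosome 19 had 108 of 167 (64.7%, 56.9 to 71.9%), an interval that includes the 60.1% of all abiraterone peaks on chromosome 19. Those on other chromosomes had 340 of 682 (49.9%, 46.0 to 53.7%). The SOX, FOX and PAX transcription factors had 203 of 377 (53.8%, 48.7 to 59.0%), with 23 of 27 at SOX5. Genes with KRT symbols, which include keratin-associated protein genes beside keratins, had 30 of 74 (40.5%, 29.3 to 52.6%). Ribosomal protein genes had 48 of 96 (50.0%) and histone genes 16 of 28 (57.1%, 37.2 to 75.5%). All of these stand beside the 50.9% of all abiraterone peaks, and peaks at 1 gene are not independent of each other.

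By the type of the closest gene, 81.9% of the far peaks (81.5 to 82.3%) and 83.2% of the near peaks (82.8 to 83.6%) were assigned to protein-coding genes. Transcribed pseudogenes took 2.91% of the far peaks (2.74 to 3.09%) and 2.08% of the near peaks (1.93 to 2.24%). The share of long noncoding RNA genes was 10.4% and 9.82%, and that of microRNA genes 3.88% and 3.98%, with overlapping intervals in both.

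Ranked by joined sites per kb in place of peaks, the leading genes with at least 5 sites were ANXA7 (0.129 per kb), PRKAR1A (0.127), MRRF (0.0850), CLVS2 (0.0741) and NME9 (0.0730), of which the first 3 are also among the 15 densest by peaks.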
